A study of Mus musculus with 22 samples.

Results

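A set of 10 genes that serves red cell development or iron handling were followed through haematopoietic stem cells (HSCs) of the mouse: Gata1, Klf1, Zfpm1, Epor, Car2, Tmod1, Slc40a1, Tfrc, Fth1 and Hmox1. They were picked by gene name, with earlier results of these data known, and all 10 are among the 13594 genes of the deposited table. The HSCs had been sorted as KSL cells (no lineage markers, with Kit and Sca-1) that were CD48- and CD150+, and their RNA was sequenced in bulk. Donors were Cd53 knockout (KO) mice or wild-type (WT) littermates. They received saline or, for 7 days, G-CSF (granulocyte colony-stimulating factor), and ages and strain are not given in the sources used here. After saline, marrow gave 4 WT and 3 KO libraries. After G-CSF, marrow gave 3 WT and 4 KO libraries, and spleen gave 4 WT and 4 KO libraries. Spleen of saline-treated mice was not analysed here, so each spleen comparison is with marrow after G-CSF. The deleted part of Cd53 and the cells in which it is lost are not given in the sources used here.

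Red cell development is directed by the zinc finger factor Gata1 with its cofactor Zfpm1 (FOG1), and Klf1 drives the late globin and membrane genes. Gata1 and Zfpm1 also serve megakaryocytes, which arise from a shared precursor. Developing red cells import transferrin-bound iron through Tfrc, store it in ferritin, whose heavy chain is Fth1, and export it through ferroportin, Slc40a1. Hmox1 breaks haem down and releases its iron. In macrophages of spleen and marrow, Hmox1 and Slc40a1 recycle the iron of old red cells. Iron regulatory proteins bind a short RNA hairpin, the iron responsive element. They block translation where it lies before the coding region and stabilise the transcript where it lies behind it.

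The hairpins are shown because 3 of the iron handling genes are known for them. The search took CAGTGN, printed in capitals as the loop, with 5 bases on each side that pair (G with T allowed) and an unpaired C before them, in GENCODE M21 transcripts on build GRCm38. Fth1 and Slc40a1 each held 1 such hairpin in the 5′ untranslated region, and Tfrc held 4 in the 3′ untranslated region. The Fth1 hairpin lies at chr19:9982738-9982754 on the plus strand and that of Slc40a1 at chr1:45925471-45925487 on the minus strand. The Tfrc hairpins lie on the plus strand, at chr16:32631225-32631241, chr16:32631604-32631620, chr16:32631669-32631685 and chr16:32631716-32631732.
Fth1: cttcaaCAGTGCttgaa
Slc40a1: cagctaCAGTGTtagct
Tfrc 1: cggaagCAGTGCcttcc
Tfrc 2: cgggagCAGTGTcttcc
Tfrc 3: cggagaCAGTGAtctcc
Tfrc 4: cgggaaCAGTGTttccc
Of 22500 coding genes, 31 (0.138%) held a match in the 5′ region and 144 (0.64%) in the 3′ region. The search fixed the first 5 loop letters. The sixth was C or T, and A in the third Tfrc hairpin, and the stems differ between the genes.

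Each library held 22578088 to 31268856 reads in the listed genes, and 1 read was worth 0.0306 to 0.0465 CPM (counts scaled to a common total). A list of 16 HSC and progenitor genes, all listed in the table, summed to 5555 to 7730.1 CPM. It includes Cd48, which the sort selected against. Of 15 erythroblast markers, 5 were listed, with sums of 100.3 to 193 CPM, and the others were not analysed here. Cd53 was lower in each KO library than in each WT library of the same tissue and treatment, but its transcript was not absent in KO. In marrow it lay at 2.02 to 3.61 log2 CPM in KO and 5.75 to 6.18 in WT after saline, and at 6.06 to 6.59 in KO and 9.57 to 9.83 in WT after G-CSF. The KO libraries after G-CSF thus overlapped or lay above the WT saline range. The labels number the replicates but do not say that each is a separate animal, so p-values cover the spread between these libraries, which may be technical. All values below are log2 CPM or differences of log2 CPM (log2 fold changes), and errors on group means are SD.

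Across all 22 libraries, Car2 and Fth1 stood far above the other members. Scaled to exon length, mean levels in log2 CPM per kb were 10.92 for Car2, a carbonic anhydrase, and 9.05 for Fth1. Gata1 followed at 3.43, Hmox1 at 2.25 and Epor, the erythropoietin receptor, at 2.21. Slc40a1 lay at 1.83 and Tfrc, the transferrin receptor, at 1.21. The lowest were Zfpm1 at -0.21, Tmod1, a protein that caps actin filaments in the red cell membrane, at -0.44, and Klf1 at -0.96. Klf1 was counted with 3 to 85 reads per library and Car2 with 88113 to 182697, so the precision differs widely between members. Tmod1, Zfpm1 and Fth1 can share reads with other loci. Tmod1 overlaps Tstd2 on the opposite strand, and strand use in counting is not stated, so their reads cannot be told apart. Zfpm1 overlaps the predicted gene Gm20388, and Fth1 has the pseudogenes Fth-ps2 and Fth-ps3.

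**Figure D1:**
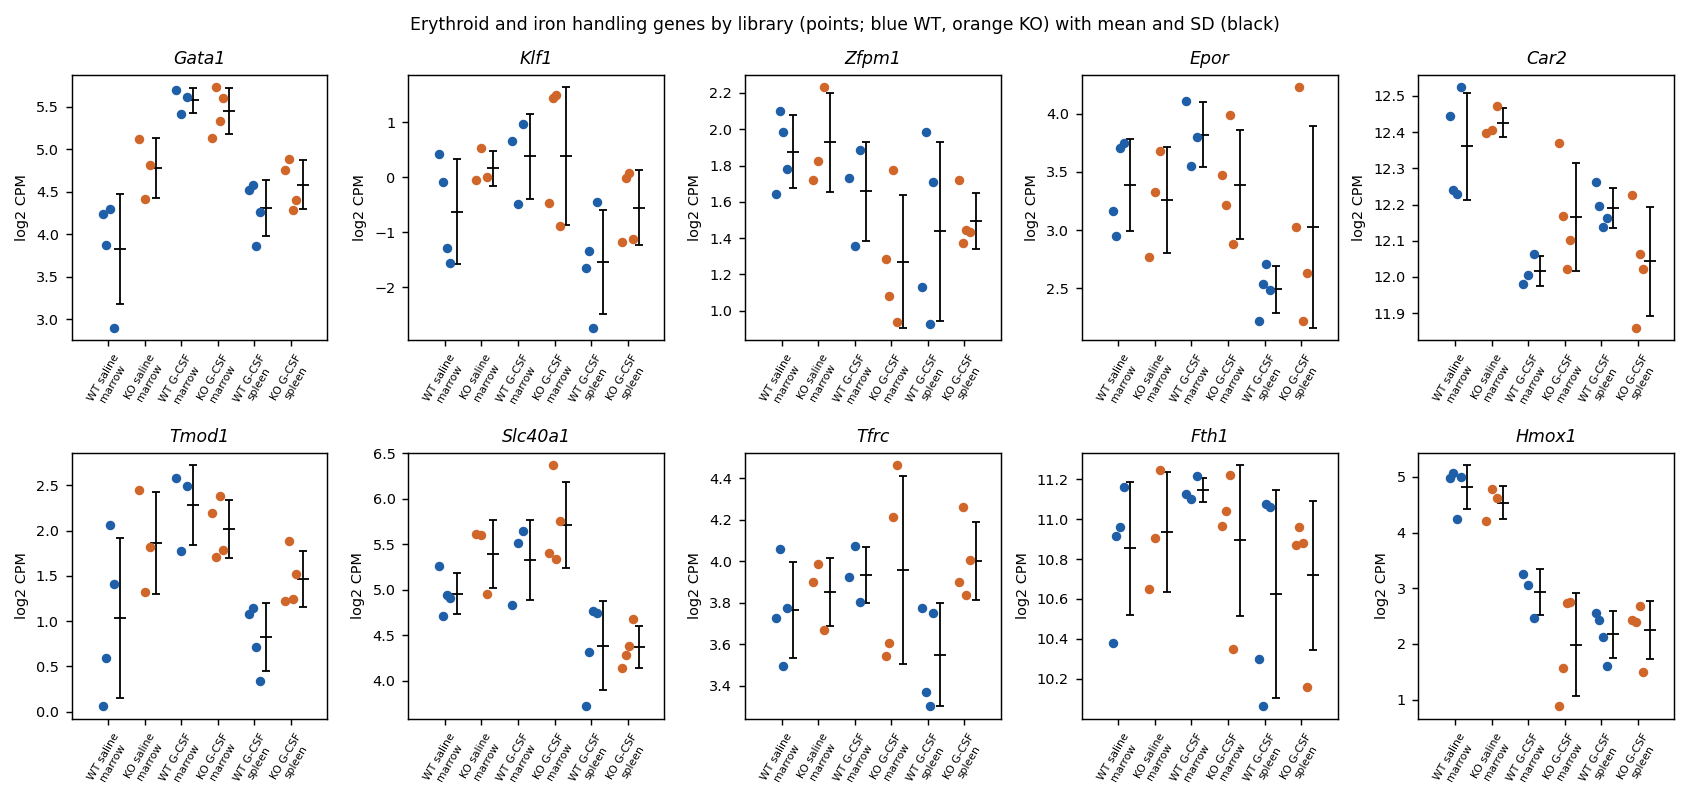
Log2 CPM (vertical axis, a separate range for each gene) of the 10 genes in each library, by group along the horizontal axis. Points are libraries (blue WT, orange KO), and the black mark and bars are the group mean and SD. Hmox1 lay between 4.21 and 5.08 in all saline libraries and at or below 3.26 in all G-CSF libraries.

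The first question is what 7 days of G-CSF did to these genes in marrow HSCs. In WT marrow Gata1 rose 3.36-fold and Tmod1 2.38-fold, whereas Hmox1 fell 3.72-fold and Car2 fell 1.27-fold. In KO marrow Hmox1 fell 5.87-fold, and none of the other 9 members passed the test. Tfrc, Fth1, Slc40a1, Epor, Klf1 and Zfpm1 passed it in neither genotype. The test was a limma fit of all libraries, with the p-values of 13571 genes adjusted by Benjamini and Hochberg and 0.05 as the threshold. The background was 11.3% of all genes in WT (764 higher and 764 lower, 5.63% each) and 9.89% in KO (757 higher, and 585 or 4.31% lower), beside 4 and 1 of the 10 members. Scaled instead to the reads in listed genes, the splits were 556 higher and 1047 lower in WT and 589 and 799 in KO. On that scale 1 member was higher and 2 lower in WT, and 2 were lower in KO.

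Gata1, the erythroid and megakaryocytic master regulator, lay at 4.24, 3.88, 4.30 and 2.89 in the 4 WT saline libraries. After G-CSF it lay at 5.69, 5.41 and 5.62. All WT G-CSF libraries were above all WT saline libraries, and the lowest saline library was replicate 4. The log2 fold change was 1.75 ± 0.26 (SE; limma adjusted p = 8.11e-05). KO saline libraries gave 5.12, 4.41 and 4.81, and KO G-CSF libraries 5.13, 5.74, 5.33 and 5.60. The KO groups did not overlap either, but their nearest libraries differed by little, and the change of 0.67 ± 0.26 did not pass (limma adjusted p = 0.113). Groups without overlap, higher with G-CSF, made up 11.2% of all genes in WT and 8.81% in KO.

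Some markers of other cell types moved in the same libraries as Gata1. Granulocyte markers, 11 of 13 listed, summed to 214 to 403 CPM in WT saline and 501 to 674 CPM in WT G-CSF marrow, and to 190.2 to 265 CPM and 391 to 722 CPM in KO. T and NK cell markers, 4 of 10 listed, went from 85.7 to 117 CPM to 157 to 169 CPM in WT and from 96.5 to 115 CPM to 149 to 199 CPM in KO. None of these 4 pairs of ranges overlapped. Past the test, 1 of the 11 granulocyte markers rose in WT and 3 in KO. Of the 4 T and NK cell markers, 2 rose in WT and 1 in KO, and 0 of either list fell. The 3 listed B cell markers summed to 111 to 134 CPM in WT saline and 105 to 134 CPM in WT G-CSF marrow. In KO these sums were 127 to 148 CPM and 115 to 170 CPM, so they overlapped in both genotypes. None of the 3 passed the test in WT. Ighm, the IgM heavy chain, was the 1 that passed in KO, where it rose by 3.25 ± 0.52 (limma adjusted p = 0.000168). The summed level of 12 listed megakaryocyte markers was 2552 to 2793 CPM in WT saline and 2136 to 2423 CPM in WT G-CSF marrow, with 3 markers higher and 4 lower past the test. In KO marrow that sum went from 2742 to 2862 CPM after saline to 1984 to 2322 CPM after G-CSF. The 5 listed erythroblast markers summed to 100.3 to 138 CPM and 129.8 to 193 CPM in WT, and to 114 to 139.8 CPM and 122 to 133 CPM in KO. Of the HSC and progenitor genes, 4 rose and 3 fell in WT and 5 rose and 4 fell in KO. Cd48 rose by 1.78 ± 0.31 in WT and 1.79 ± 0.31 in KO (limma adjusted p = 0.00039 and 0.000405). Cd34 and Flt3, genes of early progenitors, also rose in both, Flt3 by 1.33 ± 0.33 and 1.59 ± 0.33 (limma adjusted p = 0.0103 and 0.0026). The part of these genes and cell types in the values of Gata1 and the other members was not tested. In RNA from sorted cells in bulk, a change in the number of cells that express a gene and a change in RNA per cell cannot be told apart.

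Klf1, the late erythroid factor, was at most 1.50 in any library and had wide spread. Its change with G-CSF in WT was 1.003 ± 0.68 (limma adjusted p = 0.398). Zfpm1, the Gata1 cofactor, went from 1.72, 1.83 and 2.23 in KO saline to 1.29, 1.08, 1.78 and 0.94 in KO G-CSF marrow. These ranges overlapped by 1 library, and the change of -0.66 ± 0.29 did not pass (limma adjusted p = 0.156). Epor, the receptor through which erythropoietin signals, gave 0.43 ± 0.35 in WT (limma adjusted p = 0.5).

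Of the red cell proteins, Tmod1 gave 0.06, 0.59, 2.06 and 1.41 in WT saline and 2.58, 1.77 and 2.49 in WT G-CSF marrow. The highest saline library exceeded the lowest G-CSF library, so these groups overlapped. The change was 1.25 ± 0.39 (limma adjusted p = 0.042). It lost its call without WT saline replicate 1 or 2 or WT G-CSF marrow replicate 1 or 3 (adjusted p = 0.121 to 0.149), and with the alternative scaling (adjusted p = 0.0601). Car2 lay at 12.44, 12.24, 12.23 and 12.53 in WT saline and 11.98, 12.01 and 12.06 in WT G-CSF marrow. The groups did not overlap, and the change was small, -0.34 ± 0.09 (limma adjusted p = 0.0174). Without WT saline replicate 1 or 4, or WT G-CSF marrow replicate 1 or 2, its adjusted p was 0.0532 to 0.0591. In KO, Car2 went from 12.40, 12.41 and 12.47 to 12.37, 12.17, 12.02 and 12.10, a change of -0.26 ± 0.09 (limma adjusted p = 0.0786). It passed there with the alternative scaling (adjusted p = 0.0102) and without KO G-CSF marrow replicate 1 (adjusted p = 0.0275). Leaving out WT saline replicate 1, or WT G-CSF marrow replicate 1, cut the WT count of 4 members to 2, and the KO count of 1 became 2 without KO G-CSF marrow replicate 1.

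Among the iron handling members, Hmox1 was the one that moved. WT saline libraries lay at 4.97, 5.08, 4.24 and 5.01, and WT G-CSF marrow libraries at 3.26, 3.06 and 2.47. KO saline libraries lay at 4.21, 4.79 and 4.62, and KO G-CSF marrow libraries at 0.88, 1.57, 2.74 and 2.75. In both genotypes every G-CSF library was below every saline library, which held for 11.2% of all genes in WT and 8.84% in KO. The log2 fold changes were -1.89 ± 0.38 in WT (limma adjusted p = 0.00176) and -2.55 ± 0.38 in KO (limma adjusted p = 7.27e-05). Slc40a1, the iron exporter, gave 0.37 ± 0.26 in WT and 0.32 ± 0.26 in KO (limma adjusted p = 0.422 and 0.49). Fth1 in WT gave 0.29 ± 0.24 (limma adjusted p = 0.507). Tfrc stayed within 1 SE of no change in both genotypes, with 95% intervals of -0.26 to 0.59 in WT and -0.32 to 0.53 in KO.

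Macrophages are rich in Hmox1, and some of their markers moved in the same libraries. Of 20 macrophage markers, 17 were listed. With G-CSF 2 were higher (Cd68 and Trf) and 1 lower (Hpgd) in WT. In KO 3 were higher (Cd68, Trf and Csf1r) and 6 lower (Adgre1, C1qb, Vcam1, Axl, Lyz2 and Hpgd). Their summed level, mostly Lyz2 and Cd68, was 402 to 465 CPM in WT saline, 432 to 469.6 CPM in WT G-CSF, 442 to 508 CPM in KO saline and 399 to 461 CPM in KO G-CSF marrow. Cd68, a lysosomal protein, rose by 1.81 ± 0.12 in WT and 1.59 ± 0.12 in KO (limma adjusted p = 3.31e-10 and 3.74e-09). Csf1r, the receptor for macrophage colony-stimulating factor, rose by 3.12 ± 0.77 in KO (limma adjusted p = 0.0107), from a mean of -0.85 to 2.28, and its WT means were 0.59 and 1.91. Other defining markers of low level had lower means after G-CSF. Adgre1, which encodes F4/80, had means of 1.34 and -0.83 in WT and 1.85 and -3.06 in KO, and 1 KO G-CSF library held 0 reads. The complement gene C1qb had means of 2.69 and 1.14 in WT and 2.85 and -0.32 in KO. Hpgd, a prostaglandin dehydrogenase, fell in both genotypes, from means of 2.09 to -2.37 in WT (1 G-CSF library at 0 reads) and 2.55 to -4.39 in KO (2 at 0 reads). The adhesion molecule Vcam1 fell in KO, from 3.23 to 0.13. Adgre1 and C1qb passed as lower in KO only, and the difference between genotypes in the response to G-CSF passed for 0 of the 17. The part of these cells in the Hmox1 values was not tested.

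**Figure D2:**
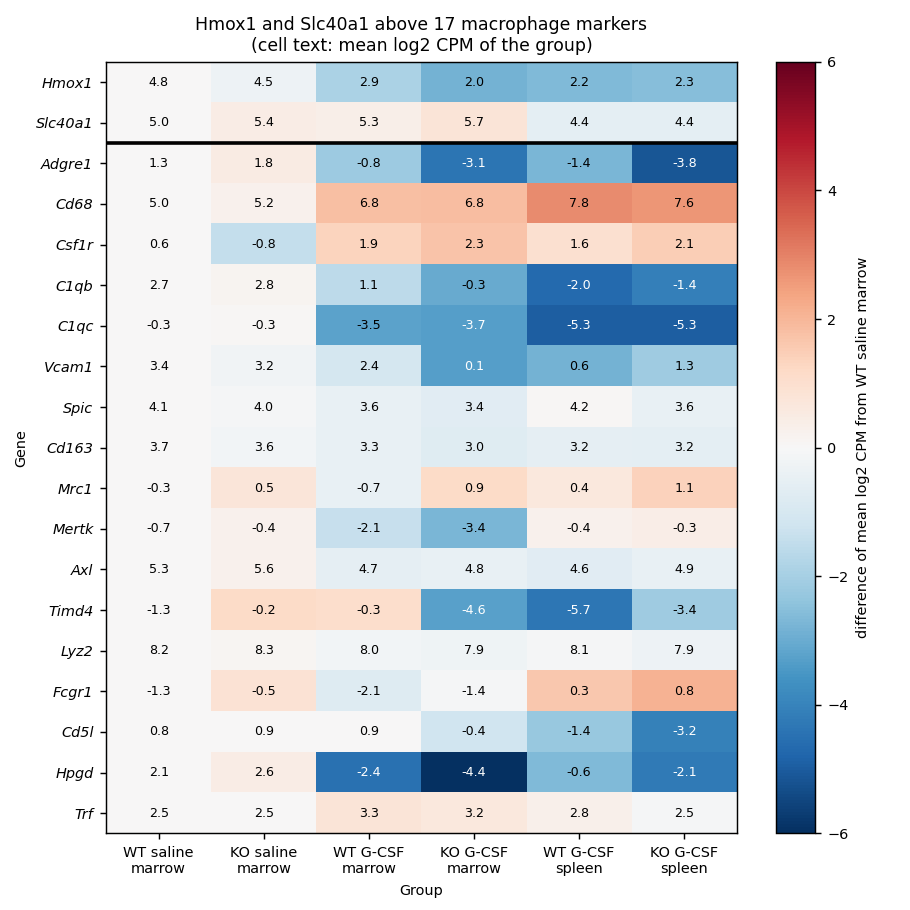
Mean log2 CPM of each group (numbers in the cells) for Hmox1 and Slc40a1, above the line, and the 17 listed macrophage markers. Colour gives the difference from WT saline marrow. Hmox1 went from 4.8 to 2.9 in WT marrow with G-CSF, while Cd68 went from 5.0 to 6.8 and Hpgd from 2.1 to -2.4.

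Related genes were counted on 6 lists that include the members. Of 25 erythroid regulators, 2 rose and 2 fell with G-CSF in WT, with a list median of -0.09 against -0.01 over all genes, and 1 rose and 2 fell in KO (median -0.21 against -0.01). Beside Gata1, Fli1, an ETS factor that favours megakaryocytes, rose by 0.39 ± 0.09 in WT and 0.35 ± 0.09 in KO (limma adjusted p = 0.00462 and 0.0127). Lmo2, the bridging protein of Gata1 complexes, changed by -0.64 ± 0.12 and -0.44 ± 0.12 (limma adjusted p = 0.000877 and 0.0193). Foxo3, a stress resistance factor, changed by -0.44 ± 0.14 in WT (limma adjusted p = 0.0436). Gata2, the factor that Gata1 replaces in red cell development, changed by -1.02 ± 0.19 in KO (limma adjusted p = 0.00077).

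Of 17 tested red cell structure and haemoglobin genes, 2 rose and 2 fell in WT (median 0.002 against -0.01), and 1 rose and 0 fell in KO (median -0.21 against -0.01). Hbb-bt, an adult beta globin, rose by 1.57 ± 0.28 in WT and 0.88 ± 0.28 in KO (limma adjusted p = 0.000476 and 0.0454). It is nearly identical to its neighbour Hbb-bs, so how reads were split between them is uncertain. Epb42, a membrane skeleton protein, changed by -1.79 ± 0.58 in WT (limma adjusted p = 0.0457).

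Of 28 haem genes, 2 rose and 2 fell in WT (median 0.02 against -0.01), and 2 rose and 3 fell in KO (median -0.007 against -0.008). Lrp1, a receptor that takes up haem bound to haemopexin, had 115 to 196 reads in WT saline and 540 to 721 in WT G-CSF libraries. It rose by 2.11 ± 0.19 in WT and 1.69 ± 0.19 in KO (limma adjusted p = 4.3e-08 and 1.45e-06). Tspo, a protein of the outer mitochondrial membrane, rose by 0.69 ± 0.14 and 0.55 ± 0.14 (limma adjusted p = 0.00248 and 0.015). Slc25a37, the mitochondrial iron importer mitoferrin, changed by -0.54 ± 0.14 in WT (limma adjusted p = 0.0159). Slc48a1, a haem transporter of lysosomes, changed by -0.65 ± 0.16 in KO (limma adjusted p = 0.0107).

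Of 26 iron genes, 6 rose and 0 fell in WT, and 3 rose and 0 fell in KO, with medians of 0.21 and 0.19 against -0.01 for all genes in both. None of these 9 calls was on a member. Steap4, a metalloreductase, had 0 reads in all saline libraries, 21 to 93 reads in WT G-CSF and 14 to 147 reads in KO G-CSF marrow. Against a floor of 3 reads per library it was at least 18.8-fold higher in WT and at least 19.9-fold higher in KO, and placing it at these bounds leaves the list medians as they are. Trf, transferrin, rose by 0.76 ± 0.16 and 0.62 ± 0.16 (limma adjusted p = 0.00257 and 0.0138), and it also stands among the macrophage markers. Hfe, a partner of the transferrin receptors, rose by 1.03 ± 0.26 in WT (limma adjusted p = 0.0105). Slc39a8, a metal ion importer, rose by 1.01 ± 0.27 in KO (limma adjusted p = 0.0201).

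Iron-sulfur cluster genes gave 1 rise among 24 in WT, Nubp2 at 0.30 ± 0.09 (limma adjusted p = 0.031), and 0 changes in KO, with medians of 0.13 and -0.02. Of 24 genes regulated by NRF2 or BACH1, the activator and repressor of Hmox1, 1 rose and 1 fell in WT and 0 rose and 1 fell in KO, with medians of 0.07 and -0.08. Beside Hmox1 the one that moved was Taldo1, a pentose phosphate enzyme, at 0.47 ± 0.08 in WT (limma adjusted p = 0.000366).

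**Figure D3:**
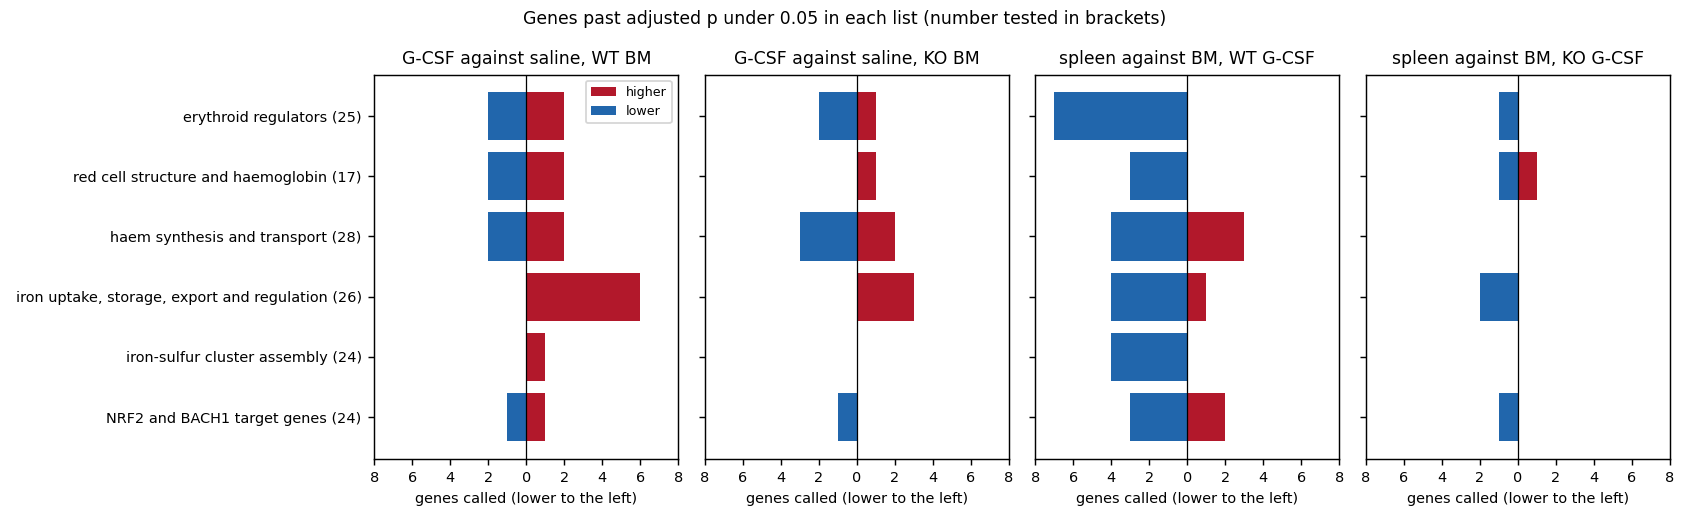
Number of genes past an adjusted p of 0.05 in each of 6 lists (vertical axis, genes tested in brackets), higher to the right in red and lower to the left in blue, in 4 comparisons. The iron list gave 6 higher and 0 lower in WT marrow with G-CSF, and the erythroid regulators 0 higher and 7 lower in WT spleen.

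The second question is how HSCs in the spleen differed from those left in the marrow after G-CSF. In WT, 4 members were lower in spleen: Tmod1 2.75-fold, Epor 2.51-fold, Gata1 2.41-fold and Slc40a1 1.92-fold. In KO, Slc40a1 was lower, 2.54-fold, and the other 9 members did not pass. No member was higher past the test. The background was 13.8% of genes called in WT (6.83% lower) and 1.27% in KO (0.317% lower). The member median was -0.85 in WT and -0.27 in KO, against 0.02 and 0.005 over all genes. These comparisons and those with saline use the same G-CSF marrow libraries, so a library that is high there raises one and lowers the other.

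Gata1 in spleen lay at 4.52, 4.58, 3.87 and 4.26 in WT and at 4.76, 4.89, 4.29 and 4.40 in KO. Both sets lay wholly below the marrow libraries after G-CSF of the same genotype, which held for 13.8% of all genes in WT and 2.28% in KO. The log2 fold changes were -1.27 ± 0.26 in WT (limma adjusted p = 0.00407) and -0.86 ± 0.24 in KO (limma adjusted p = 0.087). With voom on the recovered reads the KO change passed (adjusted p = 0.0456). Ordered by mean, Gata1 was highest in WT G-CSF marrow at 5.58 ± 0.14 (n = 3) and KO G-CSF marrow at 5.45 ± 0.27 (n = 4). After a gap came KO saline marrow at 4.78 ± 0.35 (n = 3), KO spleen at 4.58 ± 0.29 (n = 4), WT spleen at 4.31 ± 0.32 (n = 4) and WT saline marrow at 3.83 ± 0.65 (n = 4). Neighbours in this order overlapped in range except at the step from KO G-CSF marrow to KO saline marrow.

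Epor lay at 4.10, 3.55 and 3.80 in WT marrow after G-CSF and at 2.22, 2.54, 2.71 and 2.49 in WT spleen. The ranges were apart, and the change was -1.33 ± 0.35 (limma adjusted p = 0.0158), with adjusted p = 0.0899 without WT G-CSF marrow replicate 1. In KO, marrow gave 3.48, 3.22, 3.99 and 2.88 and spleen 3.03, 4.23, 2.22 and 2.63. One KO spleen library was above all KO marrow libraries, and the change was -0.36 ± 0.32 (limma adjusted p = 0.746). Klf1 in WT spleen was at most -0.44, and its change of -1.92 ± 0.68 missed the threshold (limma adjusted p = 0.0625). It passed without WT G-CSF marrow replicate 2 (adjusted p = 0.0432) or WT spleen replicate 4 (adjusted p = 0.0445), and with library weights (adjusted p = 0.0363).

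The promoters of Gata1 and Epor are shown because both genes fell in WT spleen. Tmod1 fell there too, and its window, with 0 matches to AGATAA and 4 to CCNCNCCC, is not printed. Each sequence is the 250 bases before the RefSeq start on GRCm38.p6, read along the gene, with capitals for AGATAA, the Gata1 binding motif, or CCNCNCCC, a Klf1-type motif, on either strand. The Gata1 window lies at chrX:7967911-7968160 and the Epor window at chr9:21963577-21963826, both on the minus strand. The Gata1 window is inside the gene as GENCODE M21 annotates it (chrX:7959260-7978071).
Gata1: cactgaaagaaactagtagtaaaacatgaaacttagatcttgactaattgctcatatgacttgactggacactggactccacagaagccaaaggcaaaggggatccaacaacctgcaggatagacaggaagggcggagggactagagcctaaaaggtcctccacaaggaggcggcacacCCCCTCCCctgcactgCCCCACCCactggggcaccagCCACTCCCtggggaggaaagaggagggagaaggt
Epor: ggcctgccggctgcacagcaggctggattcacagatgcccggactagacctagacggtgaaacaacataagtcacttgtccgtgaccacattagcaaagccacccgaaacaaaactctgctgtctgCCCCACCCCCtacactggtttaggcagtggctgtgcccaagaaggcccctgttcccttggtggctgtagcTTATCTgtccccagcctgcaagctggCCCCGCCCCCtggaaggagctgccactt
The Gata1 window held 0 matches to AGATAA and 3 to CCNCNCCC. The Epor window held 1 match to AGATAA, as TTATCT on the printed strand and 54 bases before the start, and 4 to CCNCNCCC, which overlap in 2 pairs. Over 32851 RefSeq windows, counted over the same 250 bases, 9.99% held AGATAA and 45.9% held CCNCNCCC. A match describes the letters and does not show binding. Windows were found for 7 of the 10 members.

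Tmod1 fell from 2.58, 1.77 and 2.49 in WT marrow to 1.08, 1.15, 0.72 and 0.34 in WT spleen. The groups were apart, and the change was -1.46 ± 0.39 (limma adjusted p = 0.018). Without WT G-CSF marrow replicate 1 or 3, or WT spleen replicate 4, its adjusted p was 0.0509 to 0.0958. In KO spleen Tmod1 lay at 1.22, 1.88, 1.25 and 1.52, a change of -0.55 ± 0.36 (limma adjusted p = 0.625). Car2 in WT spleen was 12.26, 12.20, 12.14 and 12.16, all above WT marrow after G-CSF, as in 14.5% of all genes, with a change of 0.17 ± 0.09 that did not pass (limma adjusted p = 0.218).

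Slc40a1 was the single member that passed the test as lower in spleen in both genotypes. It lay at 4.83, 5.52 and 5.64 in WT marrow after G-CSF and at 3.72, 4.31, 4.77 and 4.74 in WT spleen. KO marrow gave 5.41, 6.37, 5.34 and 5.75, and KO spleen 4.14, 4.29, 4.38 and 4.68. The groups were apart in both genotypes, narrowly in WT. The log2 fold changes were -0.94 ± 0.26 in WT (limma adjusted p = 0.0207) and -1.35 ± 0.24 in KO (limma adjusted p = 0.00395). The WT call was lost without WT G-CSF marrow replicate 2 or 3 or WT spleen replicate 1 or 2 (adjusted p = 0.0511 to 0.102). The WT count of 4 members became 2 without WT G-CSF marrow replicate 1 and without replicate 3. By mean, Slc40a1 ran from KO G-CSF marrow at 5.72 ± 0.47 (n = 4) through KO saline marrow at 5.39 ± 0.38 (n = 3), WT G-CSF marrow at 5.33 ± 0.44 (n = 3) and WT saline marrow at 4.96 ± 0.23 (n = 4). WT spleen at 4.39 ± 0.49 and KO spleen at 4.37 ± 0.23 (n = 4 each) were lowest, and all neighbours overlapped.

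Hmox1 in spleen was also below all saline marrow libraries, at 2.55, 2.42, 2.12 and 1.61 in WT and 2.43, 2.39, 2.69 and 1.50 in KO. Its change from marrow was -0.76 ± 0.38 in WT (limma adjusted p = 0.186) and within 1 SE of 0 in KO. By mean, WT and KO saline marrow stood at 4.82 ± 0.39 (n = 4) and 4.54 ± 0.30 (n = 3). A step without overlap led to WT G-CSF marrow at 2.93 ± 0.41 (n = 3), and KO spleen, WT spleen and KO G-CSF marrow followed at 2.25 ± 0.52, 2.17 ± 0.42 and 1.99 ± 0.92 (n = 4 each). These last 4 groups overlapped from neighbour to neighbour. For the 8 members other than Gata1 and Hmox1, all neighbouring groups overlapped in range.

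Fth1 and Tfrc did not pass. Fth1 went from 11.13, 11.10 and 11.22 in WT marrow to 10.30, 10.06, 11.07 and 11.06 in WT spleen, which lay below all marrow libraries, and its change was -0.52 ± 0.24 (limma adjusted p = 0.153). Tfrc went from 3.92, 4.07 and 3.80 to 3.78, 3.37, 3.30 and 3.75, also apart, with a change of -0.38 ± 0.21 (limma adjusted p = 0.217). In KO both stayed within 1 SE of 0.

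The macrophage markers summed to 556 to 588 CPM in WT spleen and 490.3 to 517 CPM in KO spleen, above marrow in both genotypes. Cd68 rose by 1.02 ± 0.12 in WT and 0.78 ± 0.11 in KO (limma adjusted p = 1.32e-05 and 0.000303). In WT, Vcam1, C1qb and Timd4, a receptor of resident macrophages, were lower past the test, and Timd4 had 0 reads in all 4 WT spleen libraries. C1qc held 0 reads in 3 of 4 spleen libraries of each genotype and at most 1 read in the other. Their part in the Slc40a1 and Hmox1 values was not tested. Megakaryocyte markers summed to 2078 to 2147 CPM in WT spleen, and erythroblast markers to 134.7 to 163 CPM. In KO spleen these sums were 1970 to 2232 CPM and 113 to 183 CPM. All of these ranges overlapped those of marrow after G-CSF. Of the megakaryocyte markers, 2 were higher (Vwf and Cd9) and 4 lower (Itga2b, Gp1ba, Itgb3 and Treml1) in WT. In KO 1 was higher (Vwf) and 2 lower (Itga2b and Gp1ba). T and NK cell markers summed to 196.1 to 219.6 CPM in WT spleen, above WT marrow, and granulocyte markers to 339.4 to 436 CPM, below it. In KO spleen these sums were 169 to 205 CPM and 390 to 476 CPM, and both overlapped KO marrow after G-CSF. Of the 4 T and NK cell markers, 1 was higher past the test in each genotype, with a median change of -0.34 in WT and -0.27 in KO. Of the 11 granulocyte markers, 1 was lower in WT and 0 in KO. The HSC and progenitor genes summed to 5555 to 5888 CPM in WT spleen and 6844 to 7367 CPM in WT marrow after G-CSF, without overlap, with 5 higher and 2 lower past the test. The lower ones were Flt3 at -2.08 ± 0.33 and Cd34 at -1.15 ± 0.13 (limma adjusted p = 0.000577 and 1.32e-05). In KO that sum was 5573 to 6449 CPM in spleen and 6361 to 7730.1 CPM in marrow, with 3 higher and 2 lower, again Flt3 and Cd34. The part of these in the member values was not tested.

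In WT spleen the medians of the 6 lists lay between -0.22 and -0.12, against 0.02 over all genes. Calls in either direction made up 16.7% to 28% of the tested genes of a list, against 13.8% of all genes. The lists include members and were chosen with earlier results of these data known, so these shares carry no test. Of 25 erythroid regulators 0 rose and 7 fell (median -0.22 against 0.02), Gata1 and Epor among them. Stat5a, a transcription factor downstream of Epor, changed by -0.65 ± 0.15, Lyl1 by -1.91 ± 0.46 and Myb, a progenitor factor, by -0.48 ± 0.12 (limma adjusted p = 0.00728, 0.00944 and 0.0135). Of 17 red cell genes 0 rose and 3 fell (median -0.19), with Tmcc2 at -1.07 ± 0.23 and the erythroid nuclear protein Hemgn at -0.42 ± 0.12 (limma adjusted p = 0.00534 and 0.0205). Haem genes gave 3 higher and 4 lower of 28 (median -0.14). Hmox2, the constitutive haem oxygenase, rose by 0.38 ± 0.08, whereas Lrp1 changed by -0.85 ± 0.19 (limma adjusted p = 0.00458 and 0.00541).

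Iron genes gave 1 higher and 4 lower of 26 (median -0.21). Ireb2, an iron regulatory protein that binds the hairpins printed above, changed by -0.57 ± 0.15 (limma adjusted p = 0.0138). Tfr2, the second transferrin receptor, changed by -0.43 ± 0.11 and the ferrireductase Steap3 by -0.66 ± 0.20 (limma adjusted p = 0.0157 and 0.0338). Iron-sulfur cluster genes gave 0 higher and 4 lower of 24 (median -0.16), among them the chaperone Hspa9 at -1.13 ± 0.26 and Bola3 at -0.71 ± 0.21 (limma adjusted p = 0.0068 and 0.0294). NRF2 and BACH1 genes gave 2 higher and 3 lower of 24 (median -0.12). Mafk, the small Maf partner of both factors, changed by -1.15 ± 0.21 and Keap1, the NRF2 inhibitor, by -0.72 ± 0.16, while Taldo1 rose by 0.34 ± 0.08 (limma adjusted p = 0.00146, 0.00514 and 0.00862).

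In KO spleen 4 of the 6 lists held calls, at 4% to 11.8% of their tested genes, against 1.27% of all genes. Each of these rests on 1 or 2 genes, and the limit from the choice of the lists holds here too. Erythroid regulators had 0 higher and 1 lower, Fli1 at -0.34 ± 0.08, and red cell genes 1 of each, Gypc (glycophorin C) at 0.28 ± 0.07 and Hemgn at -0.50 ± 0.11 (limma adjusted p = 0.0347, 0.0385 and 0.0175). The iron list had 0 higher and 2 lower, Slc40a1 and Trf, the latter at -0.69 ± 0.15 (limma adjusted p = 0.0174). The NRF2 and BACH1 list had 0 higher and 1 lower, Slc40a1, and the haem and iron-sulfur lists had 0 calls. List medians in KO lay between -0.13 and 0.09.

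**Figure D4:**
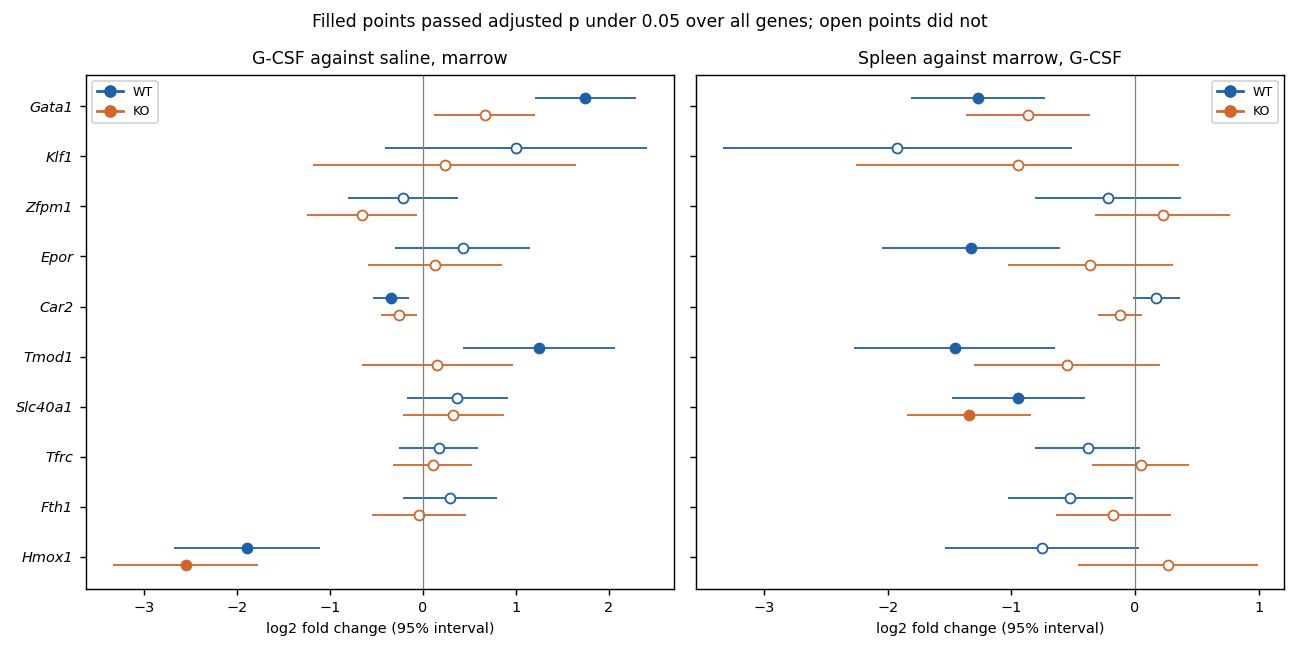
Log2 fold change with 95% interval (horizontal axis) of the 10 genes, for G-CSF against saline in marrow (left) and spleen against marrow after G-CSF (right), WT in blue and KO in orange. Filled points passed the test: 4 in WT and 1 in KO on each side.

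The third question is whether loss of Cd53 changed these genes. None of the 10 members passed in any of the 3 settings, and none of the genes on the 6 lists did. The background was 0.00737% of genes in saline marrow, 0.147% in G-CSF marrow and 0.0147% in spleen. In the limma fit, 2 members had an unadjusted p under 0.05 in saline marrow (Gata1 and Tmod1), 1 in G-CSF marrow (Hmox1) and 1 in spleen (Tfrc). The share of all genes at that cut was not counted, here or in the tests of the difference between genotypes below. These counts are therefore no result about the members. On the recovered reads limma's voom also called 0 members in all 3.

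In saline marrow the KO libraries for Gata1 were all above the WT libraries, the nearest being 4.41 and 4.30, as was the case for 2.42% of all genes. The change was 0.95 ± 0.26 (limma adjusted p = 0.853). Tmod1 lay at 2.45, 1.32 and 1.82 in KO saline marrow, overlapping the WT libraries, with 0.83 ± 0.39 (limma adjusted p = 1). Klf1 gave 0.78 ± 0.68 and Slc40a1 0.43 ± 0.26 (limma adjusted p = 1 for each). The remaining 6 members were within 1 SE of 0, with 95% intervals that reached at most 0.64 upwards (Zfpm1) and -1.07 downwards (Hmox1).

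In marrow after G-CSF, Hmox1 was -0.94 ± 0.38 in KO (limma adjusted p = 0.304), with overlapping groups. The macrophage marker Vcam1 was lower in KO there, by -2.24 ± 0.46 (limma adjusted p = 0.0429), and its part in the Hmox1 values was not tested. Epor gave -0.43 ± 0.35, Zfpm1 -0.39 ± 0.29, Slc40a1 0.39 ± 0.26, Fth1 -0.25 ± 0.24 and Car2 0.15 ± 0.09 (limma adjusted p = 0.498 to 0.676). Gata1, Klf1, Tmod1 and Tfrc stayed within 1 SE of 0.

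In spleen, Tfrc lay at 3.90, 4.26, 3.84 and 4.01 in KO, all above the WT libraries, and its change was 0.45 ± 0.19 (limma adjusted p = 0.352). Tmod1 was likewise higher in all KO than in all WT spleen libraries, at 0.65 ± 0.36 (limma adjusted p = 0.509). Such a separation upwards was seen in 3.5% of all genes. Klf1 gave 0.99 ± 0.63, Epor 0.54 ± 0.32, Gata1 0.28 ± 0.24 and Car2 -0.15 ± 0.09 (limma adjusted p = 0.527 to 0.71). Slc40a1, Hmox1, Fth1 and Zfpm1 were within 1 SE of 0.

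**Figure D5:**
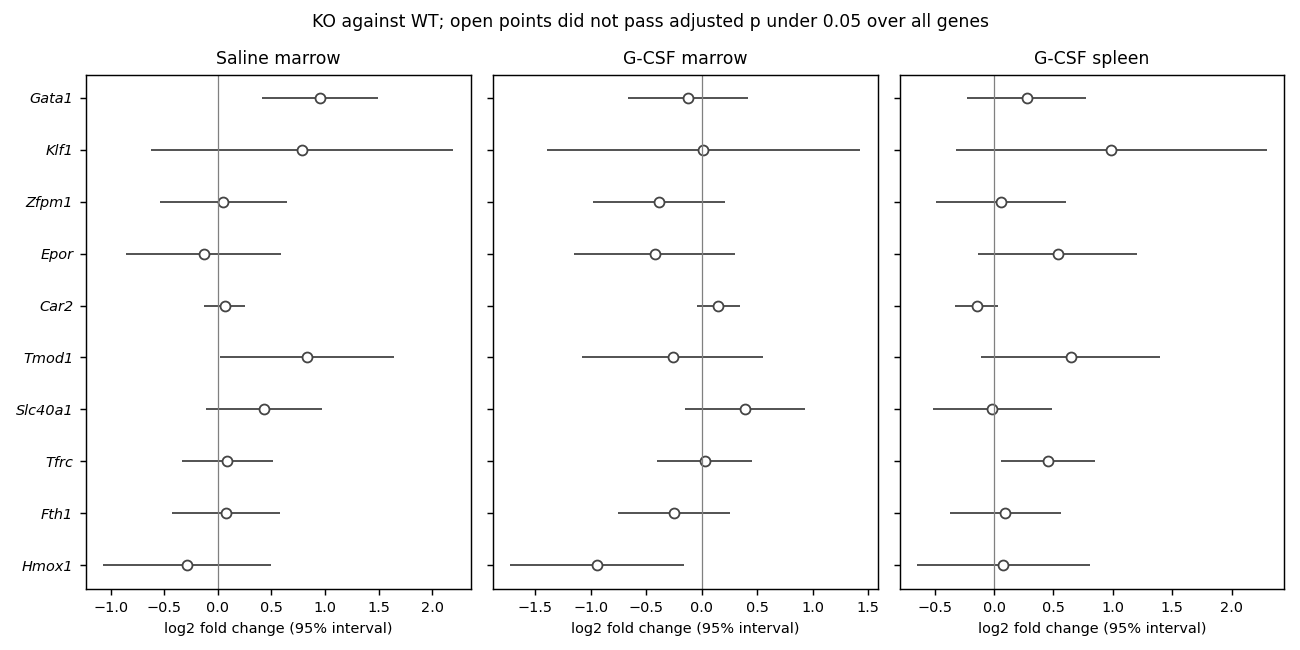
Log2 fold change of KO against WT with 95% interval (horizontal axis) for the 10 genes in saline marrow, G-CSF marrow and G-CSF spleen. All points are open, as none passed the test, and the Klf1 intervals are the widest.

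The difference between genotypes was tested directly. For the response to G-CSF, 0 members and 0% of all genes passed. The Gata1 rise was smaller in KO by a log2 difference of -1.08 ± 0.37 that did not pass (limma adjusted p = 0.542; unadjusted p = 0.00773, the 1 member under 0.05). Tmod1 gave -1.10 ± 0.56, Hmox1 -0.66 ± 0.54 and Zfpm1 -0.44 ± 0.40 (limma adjusted p = 0.723, 0.819 and 0.84). Leaving out single libraries gave 0 to 7 genes. For spleen against marrow, 0 members and 0% of all genes passed. Without KO G-CSF marrow replicate 3, 245 of all genes passed (191 higher and 54 lower) and still 0 members, where Car2, Hmox1 and Epor had the smallest adjusted p (limma, 0.133, 0.163 and 0.178). Without any other single library it was 0 to 2 genes. Car2 had the one unadjusted p under 0.05, at -0.30 ± 0.13 (limma adjusted p = 0.335). Hmox1 gave 1.02 ± 0.52, Epor 0.96 ± 0.48 and Tmod1 0.91 ± 0.54 (limma adjusted p = 0.4, 0.394 and 0.47). For the members, a call in WT and not in KO is therefore not a shown difference between them.

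The authors' deposited table holds a comparison of spleen after G-CSF with saline marrow, which joins the changes of treatment and tissue. In that authors' deposited table Hmox1 had log2 fold changes of -2.71 in WT and -2.26 in KO (adjusted p = 1.36e-07 and 4.28e-05). Slc40a1 had -0.49 and -1.09 in the authors' deposited table (adjusted p = 0.0886 and 0.00700), Epor -0.76 and -0.47 (adjusted p = 0.0292 and 0.386) and Car2 -0.12 and -0.34 (adjusted p = 0.145 and 0.00566), each in WT and KO. For Gata1 the authors' deposited table gives 0.47 in WT and -0.19 in KO (adjusted p = 0.0867 and 0.66).

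Genes whose log2 CPM ran most like a member's over the 22 libraries were looked up among 9051 genes averaging 3 log2 CPM or more. For Gata1 they were Mfsd2b (Pearson r = 0.90), Tmed10 (0.81) and Yars (0.80). For Slc40a1 they were Chad (0.88), Tent5a (0.83) and Syk (0.82), and for Hmox1 they were Soga1 (0.92), Dtnbp1 (0.92) and Asap1 (0.91). Libraries of a group share their treatment and tissue, so these values describe the libraries and carry no test.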

How the data were processed

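The authors deposited log2 values per library, and log2 fold changes with p-values, raw and adjusted, for 4 comparisons. Per the labels, RNA was extracted from sorted HSCs with a NucleoSpin RNA XS kit and libraries were made with a SMARTer Ultra Low kit. The submitters' processing notes list, for build mm10, STAR 2.5.1a and Salmon 0.8.2, featureCounts 1.4.6-p5 of Subread, besides limma, edgeR and bcl2fastq. They give no order or role. The deposited log2 values step as whole reads plus 0.5 in CPM of an effective library size, 0.938 to 1.056 times the read total. All values gave whole reads within 0.05. The deposited table had 13645 lines, of which 51 repeats were dropped, leaving 13594 genes. 13588 identifiers matched the mouse gene table, and 19 symbols turned into dates were looked up by identifier.

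Genes above 1 CPM in at least 3 libraries were tested (13571), all 10 members among them. Limma 3.58.1 in R 4.3.3 was fitted to the deposited log2 values, with group means over 22 libraries, a variance trend and 16 residual degrees of freedom. It gave 9 comparisons, each adjusted by Benjamini-Hochberg over all genes. The fit was tested on simulated data. Changes smaller than their SE are given as within 1 SE. Python 3.11.15, pandas 2.3.3, NumPy 2.4.6 and matplotlib 3.10.9 served for the rest. The edgeR quasi-likelihood and DESeq2 alternatives were not run, as the deposited unit is log2. limma's voom on the recovered reads stood in for them.

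The members and lists were chosen with earlier results of these data known. Named genes are the members, up to 3 others of smallest p among those that passed per list and comparison, the 3 genes most like Gata1, Slc40a1 and Hmox1, and markers by their sums. Some genes that this rule names are not reported here. Single markers of any cell type, and the pair of promoters printed, were picked after their values were seen. Read numbers cover counting error only. A second worksheet was not used here. Hairpins and promoter motifs were searched as letters, TGACNNNGC included (10.2% of windows, 1 match among the members, in Zfpm1).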

Additional observations from a re-analysis of the deposited data

Results flagged for a closer look

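Of 40 sets of 4 libraries (10 genes in 4 groups), 2 held a library far from the other 3, by the gap to its neighbour over the whole range with a critical value of 0.829. Chance flags about 1 in 20 such sets. Fth1 in KO spleen was lowest in replicate 4, at 10.16 against 10.87, 10.96 and 10.88, a gap of 0.889 of the range. Hmox1 in WT saline marrow was lowest in replicate 3, at 4.24 against 4.97, 5.08 and 5.01, a gap of 0.877.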

How the results depend on the processing

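Each fit was repeated with voom on the recovered reads, the compared groups alone, no variance trend, no filter, a mean of at least 1 log2 CPM, scaling to reads in listed genes, log2(CPM + 1), library weights, a replicate block and each library left out. No change called in either fit reversed. In every one of these, Gata1 rose with G-CSF in WT marrow (1.44 to 1.90) and was lower in WT spleen (-1.36 to -1.12). Hmox1 fell with G-CSF in WT (-2.09 to -1.66) and KO (-2.81 to -2.18), and Slc40a1 was lower in KO spleen (-1.47 to -1.13), all past the threshold. The count of members called in KO spleen against marrow was 2 with voom and 2 with the replicate block, in place of 1, as Gata1 passed (adjusted p = 0.0456 and 0.0489). The count for G-CSF in KO was 2 with the scaling to listed genes. Without single libraries, the count for G-CSF was 2 to 4 in WT and 1 to 2 in KO, and that for spleen was 2 to 4 in WT.

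Same-numbered G-CSF marrow and spleen libraries of a genotype correlated at -0.013 to 0.155 in their deviations (7 pairs, 1 above 0.1). Libraries of other numbers correlated at -0.099 to 0.086 (21 pairs, 0 above 0.1). The labels do not say whether same-numbered libraries come from 1 mouse, and these values do not settle it. The main fit therefore did not take the numbers as pairs. The replicate block also gave Fth1 as lower in WT spleen (-0.67, adjusted p = 0.0211), and there Epor (adjusted p = 0.0701) and Tmod1 (adjusted p = 0.0573) lost their calls, as did Tmod1 with G-CSF in WT (adjusted p = 0.0625). With the compared groups alone Tmod1 with G-CSF in WT also lost its call (adjusted p = 0.112). The cause of these changes was not tested. Counts over all genes also moved. G-CSF in KO gave 613 with the compared groups alone against 1342. WT spleen gave 1041 with the block and 2863 with library weights against 1867, and KO spleen 78 with the compared groups alone and 110 without the trend against 172. KO against WT gave 1 to 31 in G-CSF marrow against 20, and 309 with weights against 2 in spleen. Without single libraries these counts ran from 674 to 1819 in WT spleen and from 1 to 504 for KO against WT in G-CSF marrow. Klf1, at 3 to 85 reads per library, is limited by depth. The edgeR and DESeq2 fits were not run.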
